A study of Mus musculus with 14 samples.

Results

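The genes described here are 8 immediate early genes (Fos, Jun, Junb, Egr1, Atf3, Klf6, Dusp1 and Ier3) and the 2 inducible heat shock protein 70 genes Hspa1a and Hspa1b. They are 10 of the 19505 gene symbols measured, and each had 1 probe set on the array. They were chosen by name as genes that cell isolation can raise, with earlier results of these data known. Adult male wild-type C57Bl6 mice ate either CSAA, the control diet, or CDAA with added cholesterol, glucose and fructose, which the series title calls CDAA-HSHC, for 2 weeks. RNA was taken from primary hepatocytes (PH), freed by perfusing the liver with collagenase in 2 steps, with 3 arrays for each diet. It was also taken from total liver (TL), the caudal lobe of livers rinsed with saline through the heart, with 4 arrays for each diet. The design text calls the preparations independent, so the p-values rest on the spread between preparations of a group. In the main fit that spread was pooled over hepatocytes and total liver. All 14 were hybridised to Clariom S mouse arrays.

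Immediate early genes are transcribed without new protein synthesis when growth factors, cytokines or stress activate MAP kinases, and their mRNAs are short-lived. Their products are mostly transcription factors, of which Fos and Jun proteins pair to form AP-1, together with phosphatases that switch the kinases off again. Inducible HSP70 genes answer to heat shock factor 1 when proteins unfold, and their products are chaperones. In liver both sets are known to rise during regeneration, injury and enzymatic dissociation of the tissue.

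Values are log2 intensities as deposited. The median over all probe sets was 4.56 to 4.71 in the hepatocyte arrays and 6.07 to 6.24 in the total liver arrays, which look to have been normalized apart, so levels are not compared between the preparations. A value is called under background where it lies below the level that 95% of the array's intron controls do not exceed, which was 6.84 to 8.01 for hepatocytes and, for total liver, 9.96 to 10.23. Hepatocyte arrays scattered more about their group means (root mean square 0.363 to 0.594) than total liver arrays (0.229 to 0.320). By the values of the genes described here, CSAA hepatocyte arrays 1 and 2 lay at the high and the low end of their group and CDAA hepatocyte array 1 at the high end of its own. Hepatocyte differences are therefore also given in 2 ways chosen after these values were seen. Leaving out array 1 of each diet treats the diets alike, but array 1 was the highest of its group for 9 (CSAA) and 10 (CDAA) of the 10 genes. That omission tends to narrow the spread by construction, so its adjusted p-values are no independent support. Leaving out CSAA array 2 and CDAA array 1 takes the lowest control for 6 of the 10 genes and the highest CDAA array for all 10. It thereby lowers the differences of most of these genes by construction.

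The defining hepatocyte markers were high in all hepatocyte arrays, and markers of other cells moved with the diet. The mean level of 10 hepatocyte markers was 18.22 to 18.47 (sum 182.2 to 184.7) in CSAA hepatocytes and 17.22 to 18.21 (sum 172.2 to 182.1) in CDAA hepatocytes, and 4 of them (Cps1, Fgb, Hnf4a and Apob) were called lower on CDAA and 0 higher. In CSAA hepatocytes 0 of 12 Kupffer cell markers were above background and their mean was 5.12 to 5.58, with a summed log2 level of 61.4 to 67. In CDAA hepatocytes that mean was 11.01 to 12.62, with a sum of 132.1 to 151.4, and all 12 passed the test as higher. Recruited macrophage markers went from 4.18 to 4.29 (sum 46 to 47.2) up to 9.91 to 11.71 (sum 109 to 128.8), with 11 of 11 higher. Sinusoidal endothelial markers went from 5.90 to 6.40 (sum 70.8 to 76.8) up to 9.21 to 10.38 (sum 110.5 to 124.6), with 11 of 12 higher. Stellate cell markers went from 5.05 to 5.67 (sum 60.6 to 68) up to 9.11 to 10.25 (sum 109.3 to 123), with 11 of 12 higher. In total liver 7 of 12 Kupffer, 11 of 11 recruited macrophage, 1 of 12 endothelial and 6 of 12 stellate cell markers were higher on CDAA and 0 of these lower. Neutrophil markers passed as higher for 4 of 7 and T, NK and B cell markers for 3 of 9 in hepatocytes, with 4 of 7 and 1 of 9 in total liver, and of 6 cholangiocyte markers none was called in limma in either preparation (1 in hepatocytes at an unadjusted p under 0.05). The CDAA hepatocyte RNA thus carried transcripts of other liver cells at higher levels than the CSAA hepatocyte RNA, and their part in the diet differences of hepatocytes below was not tested. In bulk RNA, fewer cells of a type and less RNA per cell cannot be told apart.

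**Figure D1:**
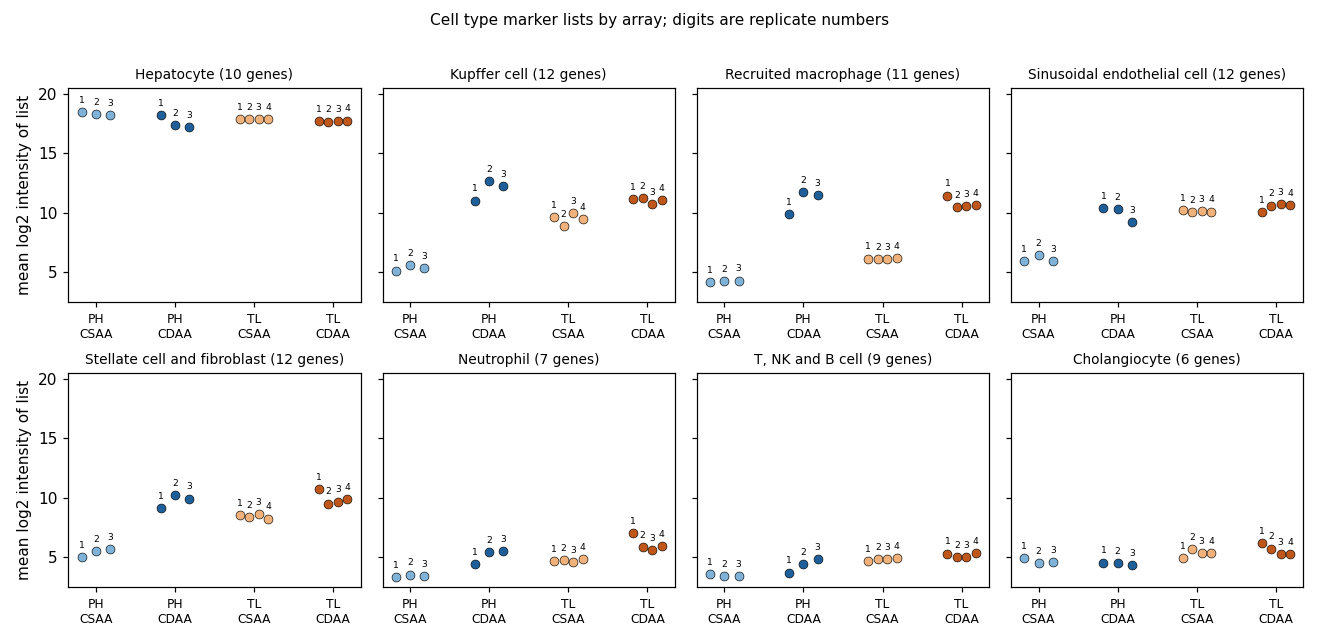
Mean log2 intensity of each cell type marker list (vertical axis) in each array, by preparation and diet, with replicate numbers beside the points. Kupffer cell markers of CDAA hepatocytes sat at 11.01 to 12.62, all above the 5.12 to 5.58 of CSAA hepatocytes, and array 1 was the lowest of the CDAA hepatocyte arrays for Kupffer and recruited macrophage markers.

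On CDAA, Klf6, Ier3, Hspa1a, Hspa1b and Atf3 rose in hepatocytes, and Klf6, Ier3 and Atf3 also rose in total liver, where Dusp1 fell. Fos, Jun, Junb and Egr1, the genes most often read as a sign of acute activation, did not pass the test in either preparation. In hepatocytes 5 of the 10 genes were called higher and 0 lower, at an adjusted p under 0.05 in limma, where 11.0% of all 22206 tested probe sets were called higher, 7.74% lower and 18.7% in either direction. In total liver 3 were higher and 1 lower, where 6.73% of probe sets were called higher, 3.54% lower and 10.3% in either direction. Groups of arrays did not overlap for the same 5 genes in hepatocytes, all higher (12.4% of probe sets), and for the same 4 genes in total liver, 3 higher (13.1%) and 1 lower (12.0%). The median difference of the 10 genes was 3.07 in hepatocytes and 0.42 in total liver, beside -0.13 and -0.09 over all tested probe sets. Of all calls, 58.7% were higher in hepatocytes and 65.6% in total liver, and these shares were 39.8% and 43.4% after centring each array on its median, and 43.5% and 59.5% after joint quantile normalization. Because the hepatocyte arrays scattered more, the adjusted p from a fit of the hepatocyte arrays alone is given beside each hepatocyte call among the 10 genes. It is not given for the related genes further below, of which 36 were called in hepatocytes in the main fit and 25 with the hepatocyte arrays alone. Such fits called 8.48% of probe sets in hepatocytes and 20.8% in total liver. The SE and intervals below come from the pooled spread. For these 10 genes in total liver the SE was smaller with the total liver arrays alone, as for Jun (0.21 against 0.57). For Fos in hepatocytes it was larger with the hepatocyte arrays alone (1.69 against 1.26).

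**Figure D2:**
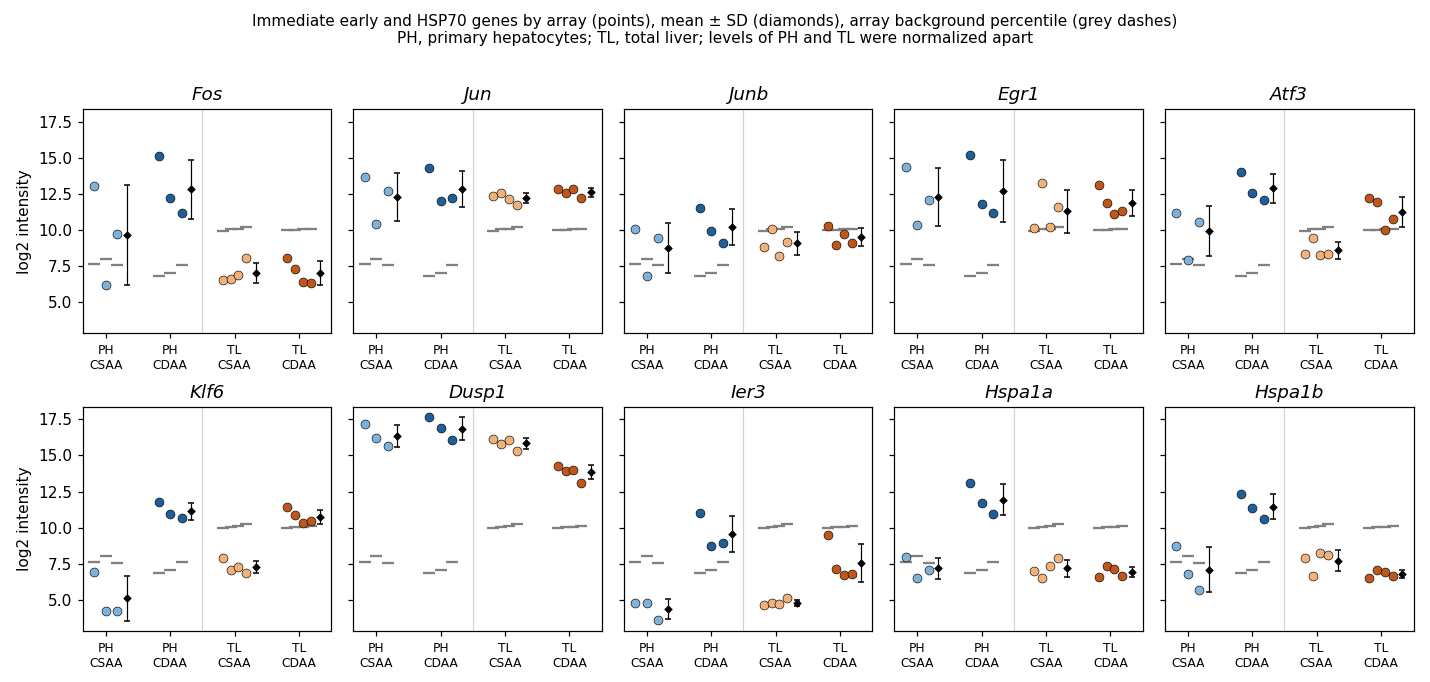
Log2 intensity (vertical axis) of the 10 genes in every array, with group mean and SD as diamonds and bars and the background percentile of each array as grey dashes. Hspa1a in CDAA hepatocytes lay at 10.98 to 13.08, above all CSAA hepatocyte arrays, and under background in all total liver arrays.

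Fos, a subunit of AP-1, was 13.07, 6.21 and 9.70 in the 3 CSAA hepatocyte arrays and 15.11, 12.24 and 11.15 in the 3 CDAA arrays. The groups overlapped, since CSAA array 1 lay above CDAA arrays 2 and 3, and CSAA array 2 lay under background. The difference was 3.18 ± 1.26 (SE, 95% interval 0.48 to 5.87, n = 3 and 3), which did not pass the test over all probe sets (limma adjusted p = 0.0962). It was 4.88 (adjusted p = 0.00508) without CSAA array 1 and 3.75 (adjusted p = 0.00519) without array 1 of each diet, but 0.31 (adjusted p = 0.856) without CSAA array 2 and CDAA array 1. Single arrays thus decided its size and its call. In total liver Fos was 6.51, 6.62, 6.91 and 8.06 on CSAA and 8.09, 7.31, 6.38 and 6.30 on CDAA. All 8 values were under background.

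Jun, the partner of Fos in the classical AP-1 dimer, was 13.68, 10.43 and 12.67 in CSAA hepatocytes and 14.26, 12.01 and 12.23 in CDAA hepatocytes. The ranges overlapped and the difference was 0.58 ± 0.66 (SE, limma adjusted p = 0.597). It was 0.57 (adjusted p = 0.478) without array 1 of each diet, 1.29 (adjusted p = 0.203) without CSAA array 1 and -1.05 (adjusted p = 0.0401) without CSAA array 2 and CDAA array 1, an omission that lowers it by construction. In total liver Jun was 12.35, 12.59, 12.15 and 11.75 on CSAA and 12.82, 12.56, 12.83 and 12.21 on CDAA. These 8 arrays lay close together and overlapped between diets, with a difference of 0.39 ± 0.57 (SE, 95% interval -0.82 to 1.61, limma adjusted p = 0.726).

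Junb, an AP-1 subunit that can restrain Jun, was 10.04, 6.79 and 9.46 in CSAA hepatocytes and 11.55, 9.93 and 9.13 in CDAA hepatocytes. The groups overlapped, the lowest value again came from CSAA array 2, and the difference was 1.44 ± 0.75 (SE, limma adjusted p = 0.206). It was 1.41 (adjusted p = 0.186) without array 1 of each diet and -0.22 (adjusted p = 0.836) without CSAA array 2 and CDAA array 1. In total liver Junb was 8.86, 10.09, 8.20 and 9.20 on CSAA and 10.31, 8.96, 9.74 and 9.09 on CDAA. On each diet 3 of 4 values were under background and the difference was 0.44 ± 0.65 (SE, limma adjusted p = 0.731).

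Egr1, a zinc finger factor induced through serum response elements, was 14.39, 10.38 and 12.05 in CSAA hepatocytes and 15.16, 11.83 and 11.18 in CDAA hepatocytes. Array 1 was the highest on both diets and the groups overlapped. The difference was 0.45 ± 1.09 (SE, 95% interval -1.86 to 2.77, limma adjusted p = 0.819), an interval wide enough to hold large changes of either sign. It was 0.29 (adjusted p = 0.857) without array 1 of each diet and -1.71 (adjusted p = 0.221) without CSAA array 2 and CDAA array 1. In total liver Egr1 was 10.13, 13.26, 10.20 and 11.61 on CSAA and 13.09, 11.86, 11.08 and 11.34 on CDAA, with a difference of 0.54 ± 0.94 (SE, limma adjusted p = 0.776). Here too the diets overlapped, and the highest array of all was CSAA array 2.

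Atf3, a stress-induced member of the ATF/CREB family that binds cAMP response elements, rose on CDAA in both preparations. The 250 bases before its transcript start (RefSeq, GRCm38.p6, chr1:191183334-191183583, minus strand) are shown because they hold the core of such an element, in capitals, 5′ to 3′.
Atf3: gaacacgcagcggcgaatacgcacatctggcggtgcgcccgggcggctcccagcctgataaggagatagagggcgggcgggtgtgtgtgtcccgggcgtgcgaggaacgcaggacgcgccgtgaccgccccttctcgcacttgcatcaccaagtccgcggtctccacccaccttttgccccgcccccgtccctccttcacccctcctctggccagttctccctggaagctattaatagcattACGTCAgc
The core TGACGT, on either strand, occurs in 7.51% of 32851 RefSeq promoters of 300 bases (250 before to 50 after the start), and in those of Fos, Atf3 and Dusp1 among the 9 of these genes with an entry. Atf3 was 11.20, 7.96 and 10.57 in CSAA hepatocytes and 14.02, 12.57 and 12.06 in CDAA hepatocytes. Every CDAA array exceeded every CSAA array, and the difference was 2.97 ± 0.75 (SE, limma adjusted p = 0.0104), with CSAA array 2 under background. The adjusted p was 0.0857 with the hepatocyte arrays fitted alone. The difference was 3.05 (adjusted p = 0.00815) without array 1 of each diet and 1.43 (adjusted p = 0.103) without CSAA array 2 and CDAA array 1. In total liver Atf3 was 8.31, 9.48, 8.29 and 8.32 on CSAA and 12.22, 11.94, 10.03 and 10.76 on CDAA. All CSAA values were under background, 3 of 4 CDAA values were above it, and the groups did not overlap. The difference was 2.64 ± 0.65 (SE, limma adjusted p = 0.0154), and the CDAA mean lay 2.23-fold above the mean CSAA background. The adjusted p was 0.0629 without CDAA array 1 and 0.0528 without CDAA array 2.

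Klf6, a Krüppel-like factor first known from liver injury, rose on CDAA in both preparations, in each from under background. In hepatocytes it was 6.90, 4.21 and 4.21 on CSAA and 11.78, 10.95 and 10.65 on CDAA. All CSAA values were under background and all CDAA values above it. The measured difference was 6.02 ± 0.57 (SE, limma adjusted p = 1.47e-06, 0.00226 with hepatocyte arrays alone), and the CDAA mean lay 10.5-fold above the mean CSAA background. The difference was 6.59 (adjusted p = 4.25e-09) without array 1 of each diet and 5.25 (adjusted p = 1.53e-05) without CSAA array 2 and CDAA array 1. In total liver Klf6 was 7.87, 7.08, 7.28 and 6.87 on CSAA and 11.40, 10.89, 10.33 and 10.45 on CDAA. Again no CSAA array was above background and every CDAA array was. The difference was 3.49 ± 0.49 (SE, limma adjusted p = 0.000237), and the CDAA mean lay 1.6-fold above the mean CSAA background.

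Dusp1, the phosphatase that inactivates MAP kinases in the nucleus, was the gene that fell. Its 250 bases before the start (RefSeq, GRCm38.p6, chr17:26508473-26508722, minus strand) are shown because the cAMP response element core, in capitals, occurs there 3 times, the last 2 matches overlapping on opposite strands.
Dusp1: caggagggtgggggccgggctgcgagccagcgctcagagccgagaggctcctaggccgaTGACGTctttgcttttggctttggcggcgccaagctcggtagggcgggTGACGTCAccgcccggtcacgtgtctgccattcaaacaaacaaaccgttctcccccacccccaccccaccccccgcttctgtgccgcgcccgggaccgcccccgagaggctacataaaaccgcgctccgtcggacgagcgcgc
In total liver Dusp1 was 16.12, 15.78, 16.10 and 15.31 on CSAA and 14.29, 13.95, 13.98 and 13.12 on CDAA. Every CDAA array lay below every CSAA array, far above background. The difference was -1.99 ± 0.37 (SE, 95% interval -2.79 to -1.20, limma adjusted p = 0.00238), or 3.98-fold lower. In hepatocytes Dusp1 was 17.16, 16.19 and 15.64 on CSAA and 17.65, 16.89 and 16.04 on CDAA. These groups overlapped, with a difference of 0.53 ± 0.43 (SE, 95% interval -0.39 to 1.45, limma adjusted p = 0.445), and of 0.55 (adjusted p = 0.369) without array 1 of each diet and 0.062 (adjusted p = 0.952) without CSAA array 2 and CDAA array 1.

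Ier3, a small regulator of cell survival under stress and a target of NF-kB, rose in both preparations. In hepatocytes it was 4.78, 4.78 and 3.60 on CSAA, all under background, and 11.01, 8.71 and 8.94 on CDAA, all above it. The difference was 5.17 ± 0.66 (SE, limma adjusted p = 3.3e-05, 0.00246 with hepatocyte arrays alone), and the CDAA mean lay 3.52-fold above the mean CSAA background. The difference was 4.64 (adjusted p = 0.000115) under either omission, since CSAA arrays 1 and 2 read alike. In total liver Ier3 was 4.62, 4.82, 4.71 and 5.10 on CSAA and 9.50, 7.15, 6.75 and 6.82 on CDAA. The groups did not overlap, but all 8 values were under background, so no fold is given. The measured difference was 2.75 ± 0.58 (SE, limma adjusted p = 0.00525).

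Hspa1a and Hspa1b, neighbouring genes for the same inducible chaperone, rose in hepatocytes and lay under background in all total liver arrays. Their 250 bases before the start (RefSeq, GRCm38.p6, chr17:34972157-34972406 and chr17:34959239-34959488, minus strand) are shown because they are nearly alike and carry a pair of heat shock factor units, in capitals.
Hspa1a: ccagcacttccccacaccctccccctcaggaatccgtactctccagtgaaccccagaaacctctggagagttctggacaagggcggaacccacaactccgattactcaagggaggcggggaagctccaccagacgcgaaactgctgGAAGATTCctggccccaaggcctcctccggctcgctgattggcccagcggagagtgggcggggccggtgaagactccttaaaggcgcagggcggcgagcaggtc
Hspa1b: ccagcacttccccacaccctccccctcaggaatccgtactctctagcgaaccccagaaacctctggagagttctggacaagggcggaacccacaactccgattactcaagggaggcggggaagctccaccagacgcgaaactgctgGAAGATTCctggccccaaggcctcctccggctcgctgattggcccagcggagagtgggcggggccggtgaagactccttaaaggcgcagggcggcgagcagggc
The stretches are the same at 247 of 250 bases (98.8%). The pair, GAANNTTC or TTCNNGAA on either strand, occurs in 15.1% of the 32851 promoters and in those of Jun, Hspa1a and Hspa1b among the 9 genes with an entry. A match of letters is a description and not evidence of binding. Because the genes are close copies, how far each probe set reads its own gene is uncertain, and both may report the same transcripts.

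Hspa1a was 7.99, 6.54 and 7.07 in CSAA hepatocytes and 13.08, 11.74 and 10.98 in CDAA hepatocytes. The groups were well apart, and 2 of 3 CSAA values were under background. The difference was 4.73 ± 0.48 (SE, limma adjusted p = 3.27e-06, 0.00242 with hepatocyte arrays alone). With the CSAA group so near background, no fold is given. The difference was 4.55 (adjusted p = 8.23e-07) without array 1 of each diet and 3.83 (adjusted p = 9.78e-06) without CSAA array 2 and CDAA array 1. Hspa1b followed it, at 8.76, 6.82 and 5.70 on CSAA and 12.33, 11.37 and 10.60 on CDAA. Its groups did not overlap either, with a difference of 4.34 ± 0.61 (SE, limma adjusted p = 8.77e-05, 0.0124 with hepatocyte arrays alone) and with 2 of 3 CSAA values under background. It was 4.73 (adjusted p = 2.7e-06) without array 1 of each diet and 3.76 (adjusted p = 0.00109) without CSAA array 2 and CDAA array 1.

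In total liver Hspa1a was 6.98, 6.55, 7.33 and 7.89 on CSAA and 6.60, 7.37, 7.12 and 6.64 on CDAA. Hspa1b was 7.88, 6.68, 8.24 and 8.10 on CSAA and 6.52, 7.08, 6.91 and 6.68 on CDAA. All 16 values were under background and the diets overlapped for both genes. The measured differences were -0.25 ± 0.42 (SE, limma adjusted p = 0.764) and -0.93 ± 0.53 (SE, limma adjusted p = 0.314). For Hspa1b the adjusted p was 0.0489 with the total liver arrays fitted alone and 0.0385 with array weights, at levels where the array gives no reading above background.

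**Figure D3:**
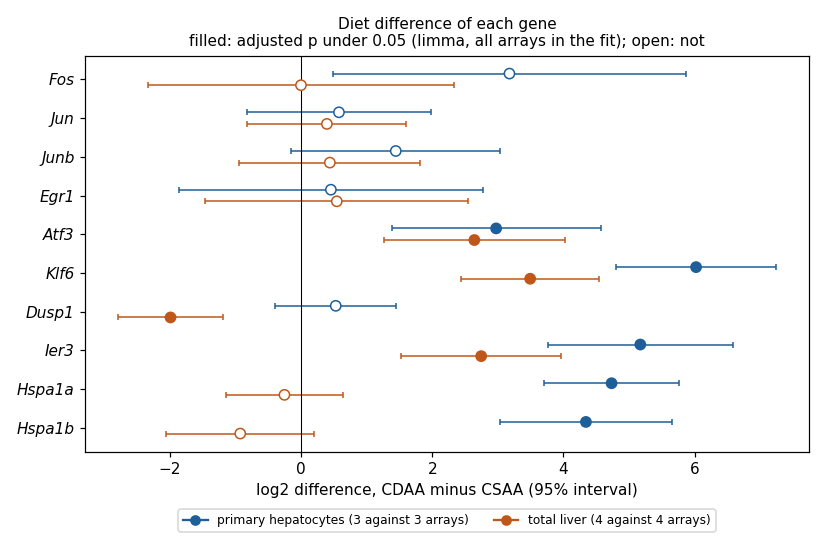
Log2 difference between CDAA and CSAA (horizontal axis) for each gene in primary hepatocytes and total liver, with 95% intervals, filled where the limma adjusted p was under 0.05. Hspa1a and Hspa1b lay at 4.73 and 4.34 in hepatocytes and near or below 0 in total liver, and Dusp1 at 0.53 and -1.99.

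Whether the diet difference itself differed between the preparations was tested as the total liver difference minus the hepatocyte difference. This test called 3 of the 10 genes, all lower in total liver, where 2.36% of probe sets were called lower, 0.212% higher and 2.57% in either direction. For Hspa1a the difference of differences was -4.99 ± 0.64 (SE, limma adjusted p = 0.000276). For Hspa1b it was -5.27 ± 0.81 (SE, limma adjusted p = 0.00142). Because total liver values of these genes were under background on both diets, a change there could have gone unseen. For Dusp1, well above background throughout, it was -2.52 ± 0.57 (SE, 95% interval -3.74 to -1.30, limma adjusted p = 0.0254).

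When each preparation kept its own spread, an alternative added after the scatter was seen that called 1.78% of probe sets, the adjusted p was 0.00227 for Hspa1a, 0.00992 for Hspa1b and 0.0545 for Dusp1. The Dusp1 call was also lost on leaving out 1 array in 6 of 14 cases, with adjusted p up to 0.0699, and those were CSAA hepatocyte arrays 2 and 3, CDAA hepatocyte array 2, CSAA total liver arrays 1 and 3 and CDAA total liver array 4. Klf6 (-2.53 ± 0.75, adjusted p = 0.116) and Ier3 (-2.43 ± 0.88, adjusted p = 0.235) were measured lower in total liver without passing the test. Both genes were under background in all CSAA arrays of both preparations, and Ier3 in all CDAA total liver arrays too. Background lay higher in total liver, so the sizes of these differences are not resolved, with all arrays or under the alternatives that follow. Klf6 passed without CSAA hepatocyte array 1 (-3.43, adjusted p = 0.00124), without array 1 of each diet in hepatocytes (-3.10, adjusted p = 0.000364), with array weights (-2.18, adjusted p = 0.0361) and with the replicate number as a block (adjusted p = 0.00917). Ier3 passed without CDAA total liver array 1 (-3.08, adjusted p = 0.0215). For Atf3 the difference of differences was -0.33 ± 0.99 (SE, limma adjusted p = 0.942), measured against CSAA total liver values under background.

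A rank within the array does not depend on the scale of the array and lets the preparations be set side by side, without a test. Where a gene is under background, its rank orders values that the array does not resolve, and in total liver this holds for Fos, Ier3, Hspa1a and Hspa1b throughout, for Atf3 and Klf6 on CSAA, and for Junb in 3 of 4 arrays on each diet. On CSAA, Dusp1 stood at the 98.4 to 99.3 percentile of hepatocyte probe sets and, in whole tissue, at 98.1 to 98.8, and Jun at 89.4 to 96.5 and 88.9 to 92.1. Fos ranged from 64.6 to 95.6 over the 3 CSAA hepatocyte arrays and from 55.3 to 66 in total liver. Egr1 ranged from 89.2 to 97.3 and from 79.5 to 94.1. On CSAA only Atf3 (76.8 to 91.3 against 67.1 to 75.5) and Hspa1a (67.1 to 76 against 55.6 to 64.9) ranked higher in every hepatocyte array than in every total liver array, that is 2 of 10 genes beside 18.6% of probe sets. Both were under background in all CSAA total liver arrays, and Hspa1a also in 2 of 3 CSAA hepatocyte arrays. None ranked lower in every hepatocyte array, as 17.9% of probe sets did.

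On CDAA, 9 of the 10 genes ranked higher in every hepatocyte array than in every total liver array, beside 17.1% of probe sets, and Egr1 (91.5 to 98.2 against 84.9 to 93.6) overlapped. Again none ranked lower throughout, as 18.1% of probe sets did. Fos was at the 91.4 to 98.1 percentile in hepatocytes against 52.1 to 64.4 in total liver. Hspa1a was at 90.9 to 95.5 against 53.8 to 60.1, and Hspa1b at 89.7 to 93.9 against 53.2 to 58.1. Klf6, at 89.8 to 92.6 against 80.3 to 86.5, and Dusp1, at 98.8 to 99.5 against 93.5 to 96.7, were closer. Of the 9 genes, Jun, Klf6 and Dusp1 were above background in every CDAA total liver array and Atf3 in 3 of 4. The preparations differed in dissociation, in RNA kit and in cell content, and these cannot be told apart here.

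**Figure D4:**
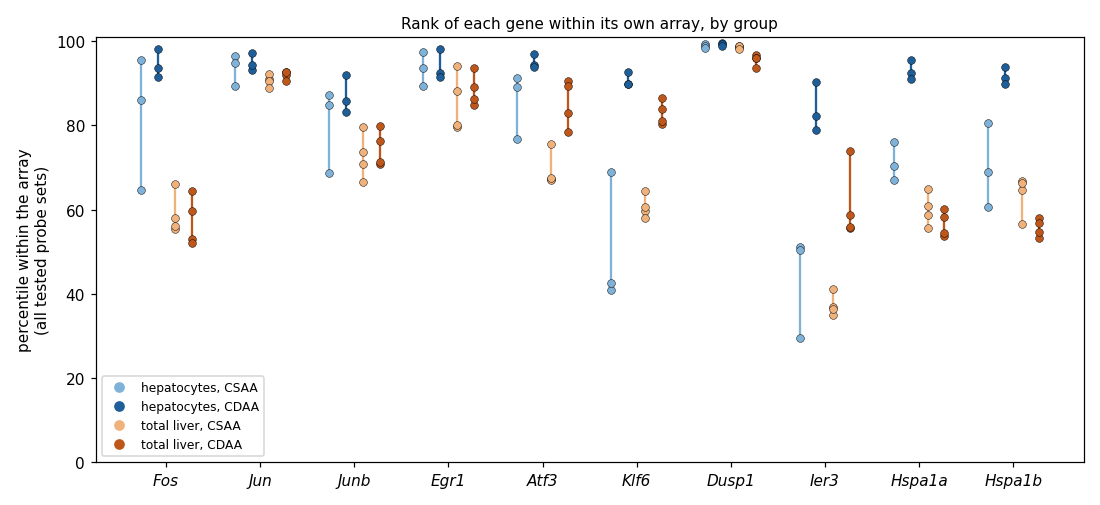
Percentile of each gene among all tested probe sets of the same array (vertical axis, 0 to 100), 1 point per array, coloured by preparation and diet. On CDAA the hepatocyte points of every gene but Egr1 lay above all total liver points, as for Fos at 91.4 to 98.1 against 52.1 to 64.4.

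Within hepatocyte groups the genes rose and fell together from array to array. CDAA array 1 was the highest of its group for all 10 genes and CSAA array 1 for 9 of 10. CSAA array 2 was the lowest for 6 and CDAA array 3 for 8. The mean deviation of the 8 immediate early genes from their group means was 1.57, -1.47 and -0.10 in the CSAA hepatocyte arrays and 1.44, -0.49 and -0.95 in the CDAA hepatocyte arrays. The 2 HSP70 genes deviated by 1.23, -0.46 and -0.76, and by 1.02, -0.13 and -0.89. The median deviation of all probe sets lay between -0.022 and 0.012 in every array, but normalization aligns arrays, so this is no check on them. Over all probe sets CDAA hepatocyte array 1 scattered most of all arrays (root mean square 0.594). In CDAA hepatocytes the array with the highest immediate early values, array 1, had the lowest Kupffer cell mean (11.01 against 12.62 and 12.24), the lowest recruited macrophage mean (9.91 against 11.71 and 11.45) and the highest hepatocyte mean (18.21 against 17.35 and 17.22), while its sinusoidal endothelial mean was the highest too (10.38 against 10.28 and 9.21).

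In total liver the same mean deviations were small on CSAA, at -0.17, 0.45, -0.29 and 0.01. On CDAA they were 0.92, 0.03, -0.41 and -0.54, with array 1 the highest for 7 of the 10 genes. That array also had the highest recruited macrophage mean (11.43 against 10.48, 10.56 and 10.60) and stellate cell mean (10.74 against 9.51, 9.69 and 9.88) of its group. Its neutrophil and cholangiocyte means were the highest too. Its endothelial mean was the lowest (10.05), and its hepatocyte, Kupffer cell and T, NK and B cell means lay between those of other arrays. The part of cell content was not tested. Over the 6 hepatocyte arrays, with group means removed, all 45 pairs of genes correlated above 0, with Pearson r of 0.29 to 1 after rounding and a median of 0.78. For the 6 pairs among Fos, Jun, Junb and Egr1 r was 0.92 to 0.96. Over the 8 total liver arrays 30 of 45 pairs were above 0, r ranged from -0.79 to 0.82 with a median of 0.24, and the 6 pairs had r of -0.22 to 0.82. Hspa1a and Hspa1b correlated at 0.77 in hepatocytes and 0.81 in total liver, though under background in the latter. These correlations describe few arrays, whose genes share the array and the preparation.

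**Figure D5:**
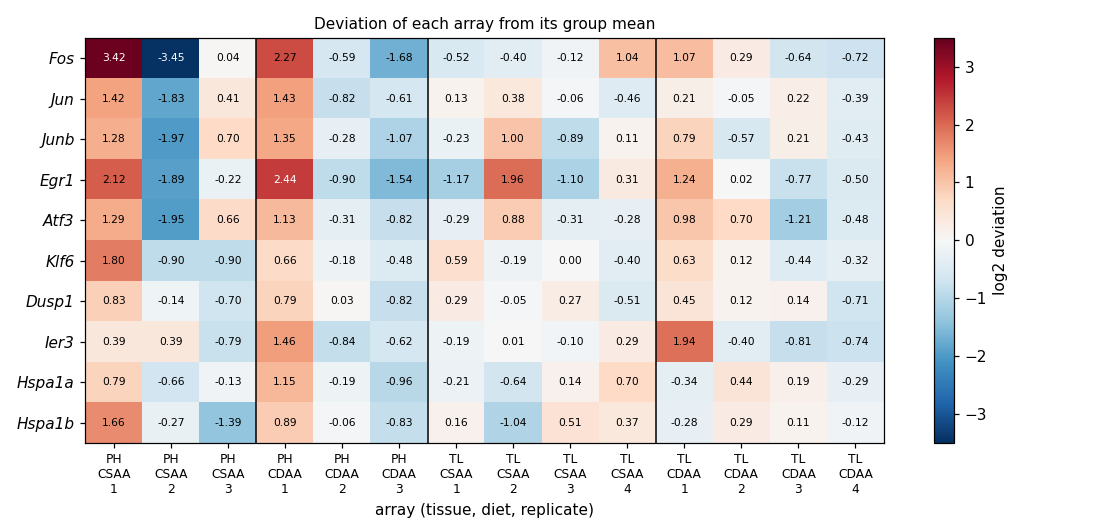
Deviation of each array from its group mean (log2, colour and number) for the 10 genes (rows) in the 14 arrays (columns). Array 1 of each hepatocyte group was above its group mean for all 10 genes, and CSAA hepatocyte array 2 was above it for 1.

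Over all 14 arrays with group means removed, the genes whose deviations were most like the mean of the 8 immediate early genes were Jund (r = 0.953), an AP-1 subunit, Slc3a1 (0.944), Llgl1 (0.913), Tbc1d17 (0.91) and Lrrfip1 (0.907). Each immediate early gene was set against the mean of the other 7, with r of 0.86 to 0.90 for Fos, Jun, Junb, Egr1 and Atf3, and of 0.76 for Klf6, 0.65 for Dusp1 and 0.53 for Ier3. These values rest largely on the hepatocyte arrays, whose deviations were the larger. In total liver Fos and Jun correlated at -0.22 and Fos and Ier3 at 0.78. Most like the mean of Hspa1a and Hspa1b were Cep170 (0.963), Spen (0.954), Fam120c (0.952), Ppp6r3 (0.948) and Hsp90aa1 (0.944), a cytosolic HSP90 chaperone. Jund (-0.11 ± 0.51, limma adjusted p = 0.914) and Hsp90aa1 (0.26 ± 0.50, limma adjusted p = 0.764) showed no called diet difference in hepatocytes. Slc3a1 (-2.63, limma adjusted p = 8.69e-05) and Ppp6r3 (-0.97, 0.0179) were called lower there, and the rest of these most alike genes were not called.

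The wider families were read from lists of related genes, in which 33 of 111 measured genes were called higher and 3 lower in hepatocytes, and 19 higher and 2 lower in total liver. Over all probe sets 11.0% were called higher and 7.74% lower in hepatocytes, and 6.73% and 3.54% in total liver, and the counts of each list below are to be read against these shares. The lists were chosen with earlier results of these data known, so setting them beside these shares is a description and no test. Of the listed genes, 16 were higher in both, which is 48.5% of the hepatocyte and 84.2% of the total liver genes, and 2 were lower in both. The share of all probe sets called in both was not counted, so this overlap cannot be read as particular to the listed genes. Among other immediate early genes, 16 of 41 rose and 0 fell in hepatocytes, and 11 rose and 0 fell in total liver, with median differences of 1.10 and 0.75. Rhob, a small GTPase of the cytoskeleton, rose by 4.13 ± 0.28 in hepatocytes (limma adjusted p = 4.91e-08, all CSAA values under background) and by 1.44 ± 0.25 in total liver (0.00111, under background on both diets). Mcl1, an inhibitor of apoptosis above background in every hepatocyte array, rose by 2.32 ± 0.22 in hepatocytes (limma adjusted p = 1.53e-06) and by 0.98 ± 0.19 in total liver (0.00312). Plaur, the urokinase receptor, rose by 2.73 ± 0.32 in total liver (limma adjusted p = 5.15e-05), as did Tnfaip3, a brake on NF-kB, by 4.03 ± 0.62 (0.000479), with all CSAA values of both, and all CDAA values of Plaur, under background. In hepatocytes Plaur rose by 4.69 ± 0.37 (limma adjusted p = 2.44e-07, all CSAA values under background) and Tnfaip3 by 6.54 ± 0.71 (6.24e-06).

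Other AP-1 and ATF genes gave 3 higher of 11 in hepatocytes and 2 higher of 11 in total liver, with 0 lower. In hepatocytes these were Fosb, a Fos relative (2.74 ± 0.82, limma adjusted p = 0.0285), Jdp2, a repressor of AP-1 (1.15 ± 0.25, 0.00433), and Creb1 (0.88 ± 0.24, 0.0166), each under background on CSAA. On CDAA, Jdp2 was under background in all 3 hepatocyte arrays, and Fosb and Creb1 in 1 each. In total liver the genes called higher were Mafk (1.92 ± 0.27, 0.00026) and Fosl2 (1.09 ± 0.30, 0.0307), under background on both diets. Of 12 EGR, NR4A and KLF genes 3 rose and 2 fell in hepatocytes, and 2 rose and 1 fell in total liver, beside the 18.7% and 10.3% of all probe sets called in either direction. Egr2 rose by 3.64 ± 0.47 in hepatocytes (limma adjusted p = 3.4e-05), from under background to above it. In total liver it rose by 2.13 ± 0.41 (limma adjusted p = 0.00259), under background on both diets. Klf10, a factor induced by TGF-beta, fell by 1.95 ± 0.33 in total liver (limma adjusted p = 0.000964) and in hepatocytes too (-1.702 ± 0.376, 0.00424), with all CDAA values in total liver under background. Klf2 rose in hepatocytes by 2.89 ± 0.52 (limma adjusted p = 0.000801), from under background to 1 of 3 CDAA values above it.

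Of 10 other dual specificity phosphatases 5 rose in hepatocytes and 2 in total liver, with 0 falling, and the fall of Dusp1 in total liver was not shared by a called relative. Dusp6, which inactivates ERK kinases and was above background in every hepatocyte array, rose by 1.77 ± 0.34 in hepatocytes (limma adjusted p = 0.00161). Dusp10 rose by 1.93 ± 0.34 in total liver (limma adjusted p = 0.00157), from under background to above it in all CDAA arrays. In hepatocytes it rose by 1.36 ± 0.40 (limma adjusted p = 0.0252). Among MAP kinase and serum response genes 1 of 15 rose in hepatocytes, Elk3 (4.24 ± 0.27, limma adjusted p = 2.63e-08, under background in all CSAA and 1 CDAA array), and none of 15 in total liver (2 at an unadjusted p under 0.05).

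Of 22 heat shock factor and HSF1 target genes 5 rose and 1 fell in hepatocytes, and 2 rose and 1 fell in total liver, with median differences of 0.09 and 0.00. The genes that rose most clearly in hepatocytes were Serpinh1, a collagen chaperone of the endoplasmic reticulum (5.16 ± 0.44, limma adjusted p = 4.44e-07), Cryab (2.34 ± 0.35, 0.000172) and Hspb1 (2.59 ± 0.52, 0.00197), the last 2 small heat shock proteins. All 3 were under background in CSAA hepatocytes, and Cryab in CDAA hepatocytes too. Serpinh1 (1.26 ± 0.38, limma adjusted p = 0.0458) and Hspb1 (1.73 ± 0.45, 0.021) also rose in total liver, under background on both diets. Hsp90aa1, by contrast with the HSP70 pair, was not called. Fkbp4, a co-chaperone of HSP90, fell by 1.25 in total liver (-1.245 ± 0.232, limma adjusted p = 0.00223) and in hepatocytes too (-1.077 ± 0.268, 0.00963). Beside the rise of Hspa1a and Hspa1b in hepatocytes, 5 of 22 related genes were called higher and 1 lower, where 11.0% and 7.74% of all probe sets were. Differences above 0 were measured for 13 of the 22, so the list did not rise as a whole.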

How the data were processed

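Per the labels, total RNA of mouse hepatocytes (RNeasy Plus kit) and total liver (RNeasy Lipid Tissue kit) was labelled with WT PLUS reagents and hybridised to Clariom S arrays, 1 per preparation. The authors deposited log2 intensities per probe set, summarised by RMA (background correction and normalization included) per the submitters' processing notes, its version not stated. Array medians differ between the preparations, so diet was tested within each.

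Of 28846 probe sets 6640 controls were left out and 22206 tested, with no filter on dim ones, and 19572 of these had 1 symbol. One limma (version 3.58.1, R 4.3.3) model held the 4 group means of all 14 arrays (10 residual and 5.11 prior degrees of freedom). Adjusted p-values are Benjamini-Hochberg over the 22206 probe sets, two-sided, called under 0.05, and errors after ± are SE of the fit unless named SD. Fits were tested on simulated data. A fold above the mean CSAA background is given where all CSAA values were under background. It compares the CDAA group mean with the mean, over the CSAA arrays, of the 95th percentile of 5222 intron controls. It is a point value without an interval, and single arrays can lie lower.

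The members and lists were chosen with earlier results of these data known. All members were named, and from each related list and diet comparison at most the 3 called genes with the smallest p. The 5 genes most like the members had the highest Pearson r after removing group means. Several probe sets of a gene were represented by the one with the highest mean. Jund, Hsp90aa1 and the other most alike genes were named by this rule. The rest of each list is given as counts, and 111 of 119 listed genes were measured.

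The main fit did not pair arrays by replicate number, and the values do not settle whether equal numbers mark pairs. Alternatives were robust moderation with trend, the compared groups alone, a filter on the 30% dimmest probe sets, joint quantile normalization, median centring, array weights, a replicate block, the mean over probe sets, a threshold of 0.10 and leaving out each array. Weights per preparation, the spread of each preparation and leaving out 2 hepatocyte arrays in 2 ways were added after the data were seen. Promoter sequences are RefSeq's (GRCm38.p6), and 9 of 10 genes matched by symbol. The number of arrays limits the precision.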

Additional observations from a re-analysis of the deposited data

Results flagged for a closer look

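Atf3 was 9.48 in CSAA total liver array 2, apart from the other 3 arrays of its group, although under background. Ier3 was 9.50 in CDAA total liver array 1, far above the other 3 arrays, and also under background. These gaps passed Dixon's 95% critical value for groups of 4, in 2 of 20 gene and group pairs tested, where chance gives about 1 in 20.

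The diet difference in total liver minus that in hepatocytes was -4.99 for Hspa1a (limma adjusted p = 0.000276), -5.27 for Hspa1b (0.00142) and -2.52 for Dusp1 (0.0254). The part of cell content and of tissue dissociation in these differences was not tested.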

How the results depend on the processing

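The number of the 10 genes called in hepatocytes was 5, and 4 to 6 under every alternative run. In total liver it was 4, and 3 to 5. For the difference between preparations it was 3, and 2 to 5, with 5 without array 1 of each diet in hepatocytes, where Fos (-3.75, adjusted p = 0.0437) and Klf6 were added. That omission takes the highest hepatocyte array of each diet for most of these genes and tends to narrow their spread by construction. The genes were not always the same. Leaving out 1 array at a time gave 4 to 6, 3 to 4 and 2 to 4. Without CSAA hepatocyte array 2 and CDAA hepatocyte array 1, the 5 hepatocyte calls were 4 higher and 1 lower. The count of related genes called in hepatocytes was 36, and 32 to 45 on leaving out 1 array and 25 with the compared groups alone. In total liver it was 21, and 14 to 30 on leaving out 1 array, 40 with the compared groups alone, 41 with array weights, 39 with weights per preparation and 32 without CSAA hepatocyte array 2 and CDAA hepatocyte array 1. The count of genes ranking higher in every hepatocyte array, 2 on CSAA and 9 on CDAA, was the same when ranks were taken among named probe sets and with the mean over probe sets.

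Signs turned for differences not called with all 14 arrays. With joint quantile normalization the difference of differences of Atf3 was 0.041. With array weights Jun in hepatocytes was -0.18, Egr1 in hepatocytes -0.53 and the difference of differences of Jun 0.57. Without CSAA hepatocyte array 2 and CDAA hepatocyte array 1, an omission that lowers the differences by construction, Jun (called, adjusted p = 0.0401), Junb and Egr1 in hepatocytes were -1.05, -0.22 and -1.71, and the differences of differences of Jun, Junb and Atf3 were 1.45, 0.66 and 1.21. On leaving out 1 array, Jun in hepatocytes ranged from -0.34 to 1.29, Egr1 in hepatocytes from -0.77 to 1.51 and Fos in total liver from -0.36 to 0.34. The differences of differences then ranged from -0.89 to 0.73 for Jun, from -0.97 to 1.31 for Egr1 and from -0.98 to 0.64 for Atf3. The cause was not tested.

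Same-numbered arrays did not all deviate together (r over all probe sets of 0.35, -0.21 and 0.26 in hepatocytes, and 0.02, -0.01, -0.13 and -0.02 in total liver). Over the 10 genes r was 0.58, 0.31 and -0.27, and -0.44, -0.28, 0.33 and -0.05. With the replicate number as a block, 6, 4 and 4 of the genes were called in the 3 comparisons, adding Fos in hepatocytes (adjusted p = 0.0158) and Klf6 in the difference (0.00917), and 44 and 23 related genes.

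Centring each array on its median moved the median difference of all probe sets by -0.16 in hepatocytes and -0.14 in total liver. Atf3 in hepatocytes lost its call without CSAA array 2 (2.00, adjusted p = 0.0518). Precision is limited by 3 or 4 arrays a group and, for Fos, Ier3, Hspa1a and Hspa1b in total liver, by values under background.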
